A study of Rattus norvegicus with 12 samples.

Results

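The 10 genes described here are C1qa, C1qb and C1qc, which encode the chains of complement C1q, and the microglial genes Trem2, Tyrobp, Cx3cr1, Csf1r, Aif1, P2ry12 and Itgam. They were chosen by name, as every non-control probe whose gene name in the array files was one of the 10. The choice drew on these data, because C1qa and Trem2 had been noted as higher than control after both exposures. The 10 genes were 10 of 18688 genes tested and had 13 probes, with 1 spot each, among 30367 non-control probes. All 13 probes were well above background in all 12 samples, except the Tyrobp probe, which was so in 3 of 4 samples of 1 group. C1qa lay 1.36-fold above control after prenatal betamethasone and 1.46-fold above it after betamethasone with ketamine, and Trem2 lay 1.18-fold and 1.34-fold above it. Itgam, a complement receptor chain, lay 1.39-fold below control after betamethasone. Aif1, the usual staining marker of microglia, was within 0.02 of control on the log2 scale on its tested probe, but this depended on the scaling and on single arrays. None of the 10 genes passed the threshold between animals with and without ketamine, with all samples in the model. Nor did any of the 18688 genes tested (0%).

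The data were signals from 6 Agilent 2-colour arrays hybridised with prefrontal cortex RNA of Sprague-Dawley females, and each dye channel held its own animal. The dams of the control group were given saline on gestational day 15, and the pups were given saline on postnatal day 14. The betamethasone group came from dams injected 2 times with betamethasone, a synthetic glucocorticoid, at 0.4 mg/kg each on gestational day 15, and the pups were given saline on postnatal day 14. The group with ketamine, called the ketamine group here, had the same prenatal betamethasone and 35 mg/kg of ketamine, an NMDA receptor blocker, on postnatal day 14. Tissue was taken on postnatal day 15, with 4 animals in each of the 3 groups; a separate stage field in the labels reads otherwise. The labels tie the postnatal injection to rats that had spasms, without saying which groups had them. They name no litter, so the p-values measure the spread between animals whose litters are unknown. An array carried 2 animals from 1 group, with odd replicates in Cy3 and even ones in Cy5. The control arrays shared a slide, and the 4 arrays of exposed animals shared another. In either comparison with control the slide therefore cannot be told apart from the exposure, whereas the ketamine comparison was made within 1 slide. Between 71.4% and 81.5% of the spots were well above background in each sample, and saturation affected 0 of the non-control spots. Precision was limited by having 2 arrays in each group. Of the cortical cell markers found on the array, 9 of 9 for neurons and 8 of 8 for astrocytes passed the filter on dim probes, as did the 10 genes described here. Of 10 listed neuron markers, Rbfox3 was not found on the array.

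C1q is the recognition part of the classical complement pathway, and in the brain its chains are made mainly by microglia, the resident macrophages. C1q binds to synapses during postnatal refinement and starts a cascade whose products are bound by complement receptors on microglia. Trem2 is a lipid-sensing receptor of microglia that signals through the adaptor Tyrobp. Csf1r carries the survival signal of microglia, Cx3cr1 receives the neuronal chemokine fractalkine, and P2ry12 senses ADP on resting microglial processes.

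The tested probes of the C1q genes lay within 15108 bases of each other on chromosome 5 of the rn4 build, the build of the array design and of all probe positions given here. In the RefSeq annotation of GRCr8, C1qb, C1qc and C1qa followed each other on chromosome 5 between bases 154402276 and 154419933. The probe sequences below, as printed in the array design, show which stretches of the C1qa, C1qc and Trem2 transcripts the values stand for. They also show the 34 bases shared by both Itgam probes, in capitals, beyond which the Itgam probes differ. No annotation of the rn4 build was used here, so exon and UTR are not stated for the probes.
C1qa probe A_44_P487761, chr5:155662578-155662637, minus strand: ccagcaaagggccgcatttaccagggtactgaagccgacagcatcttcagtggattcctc
C1qc probe A_44_P500708, chr5:155656638-155656697, minus strand: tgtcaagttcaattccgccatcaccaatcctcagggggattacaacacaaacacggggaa
Trem2 probe A_42_P512838, chr9:8059065-8059124, minus strand: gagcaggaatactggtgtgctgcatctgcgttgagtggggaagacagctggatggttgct
Itgam probe A_64_P023848, chr1:187385524-187385583, plus strand: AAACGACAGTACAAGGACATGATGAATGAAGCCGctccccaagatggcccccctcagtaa
Itgam probe A_43_P15993, chr1:187385032-187385565, plus strand: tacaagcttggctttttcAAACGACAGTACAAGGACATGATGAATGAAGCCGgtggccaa

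C1qa, C1qb and Trem2 had means above control in both exposed groups, as did Cx3cr1 and Csf1r, whose promoters are not printed. The 250 bases before the start site of C1qa, C1qb and Trem2 are shown from the RefSeq promoter table of GRCr8. That table held 6 of the 10 genes (C1qa, C1qb, Trem2, Cx3cr1, Csf1r and Itgam), and the start sites are its own. For Trem2, Cx3cr1, Csf1r and Itgam the stretch lay partly or wholly within the bounds of the gene in the RefSeq annotation. Capitals mark GAGGAA or, on the other strand, TTCCTC, a form of the letters bound by the myeloid factor PU.1. The shorter core GGAA within it was not marked on its own, and the C1qa stretch also holds GGAA.
C1qa, chr5:154419934-154420183, minus strand: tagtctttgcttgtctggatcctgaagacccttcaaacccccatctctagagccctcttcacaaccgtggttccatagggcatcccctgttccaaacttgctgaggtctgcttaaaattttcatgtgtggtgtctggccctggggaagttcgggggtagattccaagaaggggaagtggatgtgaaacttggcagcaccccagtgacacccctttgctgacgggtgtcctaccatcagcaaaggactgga
C1qb, chr5:154407828-154408077, minus strand: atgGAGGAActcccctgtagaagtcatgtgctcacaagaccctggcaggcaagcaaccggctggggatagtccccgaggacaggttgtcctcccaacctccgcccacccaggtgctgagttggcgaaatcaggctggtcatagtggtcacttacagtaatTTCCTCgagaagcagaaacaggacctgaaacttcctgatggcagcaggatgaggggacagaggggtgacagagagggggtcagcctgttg
Trem2, chr9:20151780-20152029, minus strand: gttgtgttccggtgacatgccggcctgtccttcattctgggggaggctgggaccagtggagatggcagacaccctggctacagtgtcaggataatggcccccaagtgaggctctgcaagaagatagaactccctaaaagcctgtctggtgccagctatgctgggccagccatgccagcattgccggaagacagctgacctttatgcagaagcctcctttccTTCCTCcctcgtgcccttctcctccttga

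GAGGAA was found on either strand in 4 of these 6 promoters (C1qb, Trem2, Csf1r and Itgam), and in 23.3% of all 33469 promoters of that length. In C1qb it lay 247 and 90 bases before the start, and in Trem2 29 bases before it. The longer motif GAGGAAGT, which contains GAGGAA, was in 0 of the 6 and in 2.04% of all promoters. TATAAA was in 0 of the 6 and in 12.9% of all promoters. These matches describe letters and were not tested as binding sites.

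C1qa values were 11.80, 11.23, 11.60 and 11.54 in control replicates 1 to 4, on a log2 scale of normalised intensity. They were 12.25, 11.96, 12.05 and 11.70 in the betamethasone group and 12.27, 12.14, 12.01 and 11.94 in the ketamine group. Each ketamine sample was above every control sample, while the lowest betamethasone sample lay below the highest control sample. In the ketamine group 12.1% of all genes lay wholly above control, a share that also stands beside C1qb and C1qc below. Group means were 11.54 ± 0.23, 11.99 ± 0.23 and 12.09 ± 0.14 (SD, n = 4). Relative to control, the log2 difference was 0.45 (SE 0.16, 1.36-fold) for betamethasone and 0.55 (SE 0.16, 1.46-fold) for betamethasone with ketamine. In bulk tissue, more cells of a type and more RNA per cell cannot be told apart.

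C1qb values were 12.88, 12.92, 12.75 and 12.95 in control, 13.14, 12.87, 13.004 and 12.89 in the betamethasone group, and 13.31, 13.29, 13.10 and 13.14 in the ketamine group. The betamethasone samples overlapped the control samples, and the ketamine samples all lay above control. Against control, C1qb differed on the log2 scale by 0.10 (SE 0.13) for betamethasone and 0.34 (SE 0.13, 1.26-fold) for betamethasone with ketamine. The sign of neither difference turned under any alternative run, though many runs left a difference unchanged by design. The betamethasone one became 0.48 in place of 0.10 with the arrays centred on their medians.

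C1qc values were 9.34, 8.95, 9.27 and 9.42 in control and 8.64, 9.13, 9.63 and 9.56 in the betamethasone group. They were 9.52, 9.61, 9.47 and 9.49 in the ketamine group. The betamethasone samples were the most spread, with both lower values on 1 array and both higher values on the other. The ketamine samples lay within 0.06 (SD) and all above control. The log2 difference from control was -0.01 (SE 0.26) for betamethasone and 0.27 (SE 0.26) for betamethasone with ketamine. Without betamethasone replicates 1 and 2 the former became 0.35, and without replicates 3 and 4 it became -0.36.

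Trem2 values were 10.85, 10.74, 10.82 and 10.78 in control, the tightest of the 3 groups (SD 0.05). They were 11.18, 11.05, 11.05 and 10.89 in the betamethasone group and 11.40, 11.34, 11.06 and 11.07 in the ketamine group. Every sample of both exposed groups lay above every control sample. Of all genes, 10.6% lay wholly above control in the betamethasone group and 12.1% in the ketamine group. Group means were 10.80 ± 0.05, 11.04 ± 0.12 and 11.22 ± 0.18 (SD, n = 4). Against control, Trem2 differed on the log2 scale by 0.24 (SE 0.11, 1.18-fold) for betamethasone and 0.42 (SE 0.11, 1.34-fold) for betamethasone with ketamine. The latter became 0.27 without ketamine replicates 1 and 2 and 0.57 without replicates 3 and 4.

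**Figure D1:**
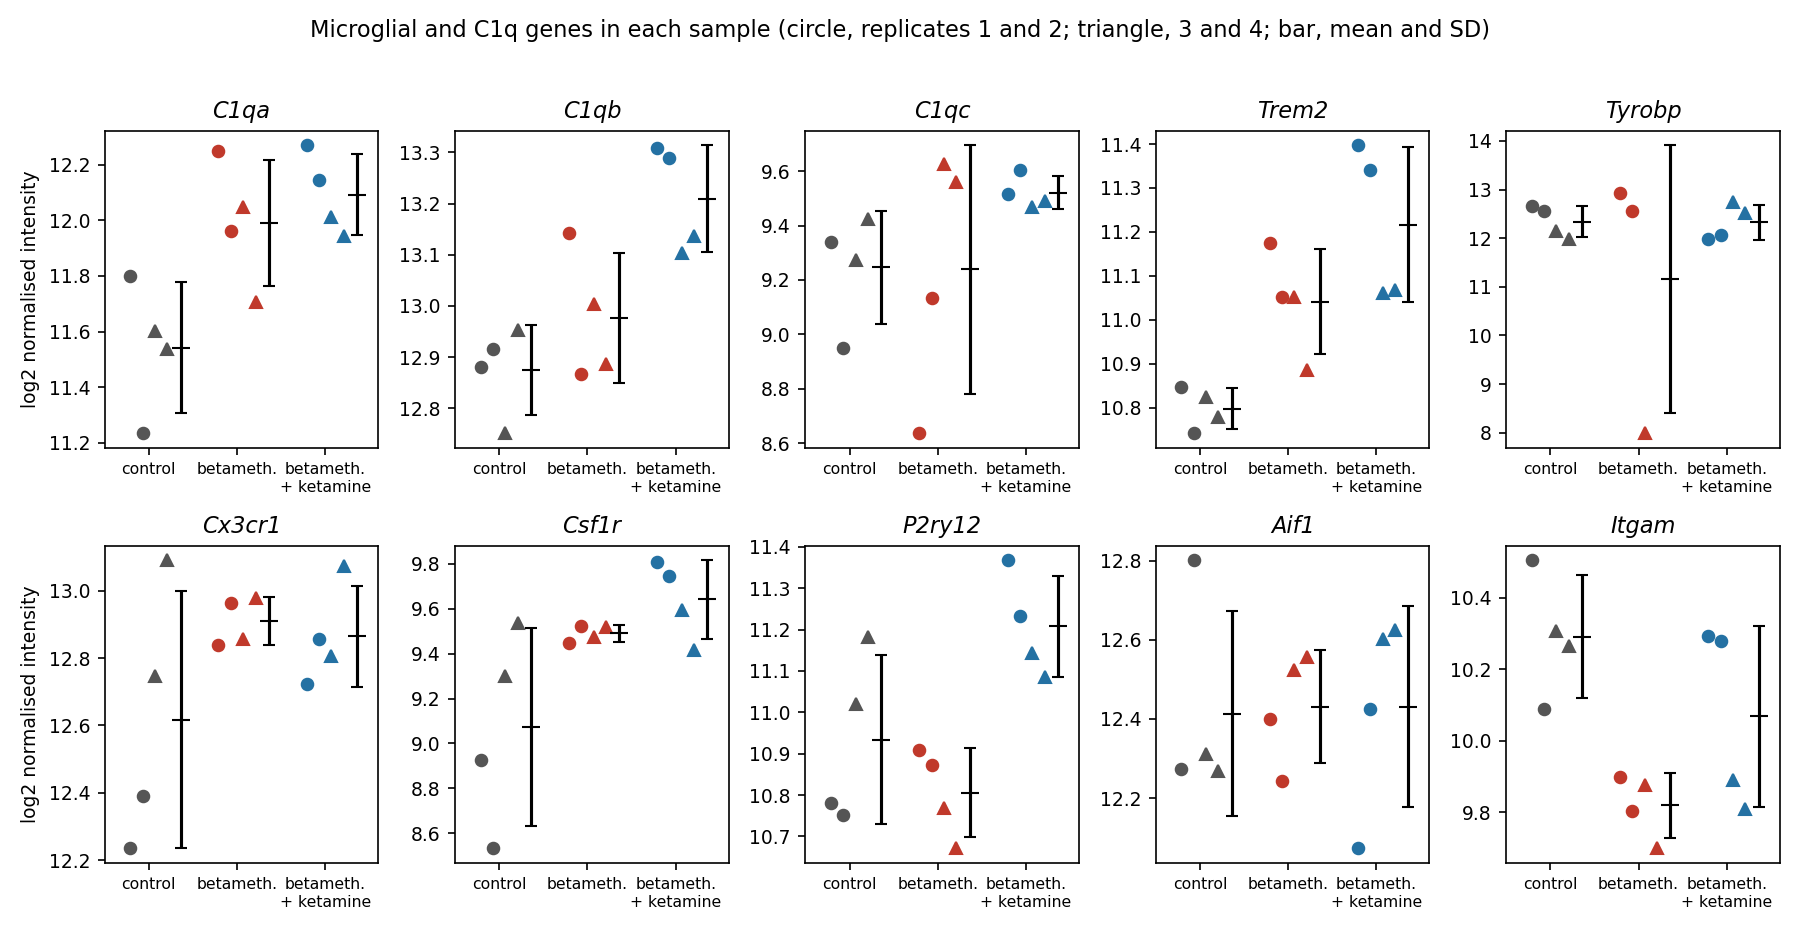
Log2 normalised intensity (vertical axis, a separate scale for each gene) of the tested probe of each gene in each of the 12 samples, by group. Circles are replicates 1 and 2 (1 array), triangles are replicates 3 and 4 (the other array), and the bar is the mean with its SD. Trem2 lies above control in all 8 exposed samples, and the low Tyrobp triangle in the betamethasone group is at 7.98. Of all genes, 10.6% lie wholly above control in the betamethasone group and 12.1% in the ketamine group.

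The Tyrobp probe (chr1:85369110-85369169, rn4) gave no usable group value after betamethasone. Tyrobp values were 12.66, 12.56, 12.15 and 11.99 in control, and 11.98, 12.07, 12.75 and 12.51 in the ketamine group. Betamethasone replicates 1 and 2 were at 12.94 and 12.56, in the range of the other groups or slightly above. On the array of replicates 3 and 4 the spot was not well above background in replicate 3 (log2 7.98, mean signal 74.7 over a local background of 16.0). It was an outlier spot in replicate 4, which was therefore left out, so that n was 3. The log2 difference from control was -1.67 (SE 1.07) for betamethasone with that array and 0.41 without it. For betamethasone with ketamine it was -0.01 (SE 1.04). No Tyrobp direction is drawn from these values, although the gene encodes the signalling partner of Trem2.

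For the receptors that keep and position microglia, Cx3cr1, Csf1r and P2ry12, both samples of 1 control array lay below both of the other on the tested probes. Cx3cr1 values (chr8:125033728-125033787) were 12.24, 12.39, 12.75 and 13.09 in control, 12.84, 12.96, 12.86 and 12.98 in the betamethasone group, and 12.72, 12.86, 12.81 and 13.08 in the ketamine group. All 3 groups overlapped, and the control spread (SD 0.38) was larger than that of the betamethasone group (SD 0.07) and the ketamine group (SD 0.15). Cx3cr1 differed from control on the log2 scale by 0.29 (SE 0.16) for betamethasone and 0.25 (SE 0.16) for betamethasone with ketamine. Without control replicates 1 and 2, which share an array, these became -0.01 and -0.05, and without replicates 3 and 4 they became 0.60 and 0.55.

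Csf1r had 2 probes. The tested one, A_44_P257582, spanned 702 genomic bases (chr18:57105231-57105932), so it crossed at least 1 exon junction. Its values were 8.93, 8.53, 9.30 and 9.54 in control, 9.45, 9.52, 9.47 and 9.52 in the betamethasone group, and 9.81, 9.75, 9.59 and 9.41 in the ketamine group. The low values were those of 1 control array, and the groups overlapped. The log2 difference from control was 0.42 (SE 0.22) for betamethasone and 0.57 (SE 0.22, 1.48-fold) for betamethasone with ketamine. Without control replicates 1 and 2 these were 0.07 and 0.22, and without replicates 3 and 4 they were 0.76 and 0.91. The other probe, A_64_P351634 (chr18:57093036-57093095), gave 0.15 and 0.28 (SE 0.12), in the same direction. Here the betamethasone samples, at 8.36, 8.34, 8.42 and 8.41, all lay above the control samples, at 8.12, 8.29, 8.22 and 8.33. On their tested probes, 10.6% of all genes lay wholly above control in that group.

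P2ry12 values (chr2:148611053-148611112) were 10.78, 10.75, 11.02 and 11.18 in control, 10.91, 10.87, 10.77 and 10.67 in the betamethasone group, and 11.37, 11.23, 11.14 and 11.09 in the ketamine group. The control samples overlapped both other groups, and every ketamine sample lay above every betamethasone sample. P2ry12 differed from control on the log2 scale by -0.13 (SE 0.13) for betamethasone and 0.27 (SE 0.13) for betamethasone with ketamine. The first of these was above 0 with the arrays centred on their medians (0.15) or with the scanner software's processed signals (0.04). Without control replicates 3 and 4 the differences were 0.04 for betamethasone and 0.44 for betamethasone with ketamine, and without control replicates 1 and 2 they were -0.30 and 0.11.

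Aif1, which encodes the actin-binding protein IBA1 used to stain microglia, had group means close to each other. The tested probe, A_64_P130983 (chr20:3716264-3716323), was at 12.27, 12.80, 12.31 and 12.27 in control, 12.40, 12.24, 12.52 and 12.56 in the betamethasone group, and 12.07, 12.43, 12.60 and 12.63 in the ketamine group. The groups overlapped in every comparison. The log2 difference from control was 0.02 (SE 0.21) for each exposed group. On the other probe, A_64_P047714 (chr20:3716146-3716205), it was -0.02 for betamethasone and -0.10 for betamethasone with ketamine (SE 0.16). With the arrays centred on their medians, the difference of the tested probe was 0.36 for betamethasone and -0.16 for betamethasone with ketamine, and with the processed signals it was 0.07 and -0.20. Without control replicates 1 and 2 it was 0.14 for each exposed group, and without control replicates 3 and 4 it was -0.11 for each.

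Itgam, which encodes the CD11b chain of complement receptor CR3, lay lower after betamethasone on both of its probes. The tested probe, A_64_P023848, was at 10.51, 10.09, 10.31 and 10.26 in control and at 9.90, 9.80, 9.88 and 9.70 in the betamethasone group. It was at 10.29, 10.28, 9.89 and 9.81 in the ketamine group. Every betamethasone sample lay below every control sample, while the ketamine samples split by array, with replicates 1 and 2 within the control range and replicates 3 and 4 below it. Itgam differed from control on the log2 scale by -0.47 (SE 0.15, 1.39-fold lower) for betamethasone and -0.22 (SE 0.15) for betamethasone with ketamine. Without ketamine replicates 1 and 2 the latter was -0.44, and without replicates 3 and 4 it was -0.01. The other probe, A_43_P15993, spanned 534 genomic bases and gave -0.63 and -0.60 (SE 0.23). On it every sample of both exposed groups, from 8.22 to 8.47, lay below the control samples, at 9.54, 8.93, 8.75 and 8.72. On their tested probes, 7.37% of all genes lay wholly below control in the betamethasone group and 3.72% in the ketamine group.

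Because C1qa and Trem2 were picked for their values against control, the differences of the 10 genes from control are a description, with no p-value. As a count, 0 of the 10 were among the genes with a limma adjusted p under 0.05, which were 0.246% of the 18688 genes for betamethasone and 0.091% for betamethasone with ketamine. For betamethasone, Trem2 lay above control without overlap, as did 10.6% of all genes, and Itgam lay below it, as did 7.37%. For betamethasone with ketamine, C1qa, C1qb, C1qc and Trem2 lay above control without overlap, as did 12.1% of all genes, and 0 of the 10 lay below it, against 3.72%. These counts use the tested probes. On the other probes, Itgam lay below control without overlap in both comparisons, and Csf1r lay above it for betamethasone. The median difference of the 10 genes was 0.06 for betamethasone and 0.27 for betamethasone with ketamine, beside 0.03 and 0.07 over all genes. Of the 10, 6 and 8 were above 0, and of all genes 56.0% and 63.8%. These values hold Tyrobp with its failed spots. With Tyrobp left out, an alternative chosen after seeing the data, 6 and 8 of 9 were above 0, with medians of 0.10 and 0.27. With array means as replicates, where the Tyrobp difference for betamethasone was 0.41, the betamethasone median of the 10 was 0.17. The comparisons share the control samples.

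**Figure D2:**
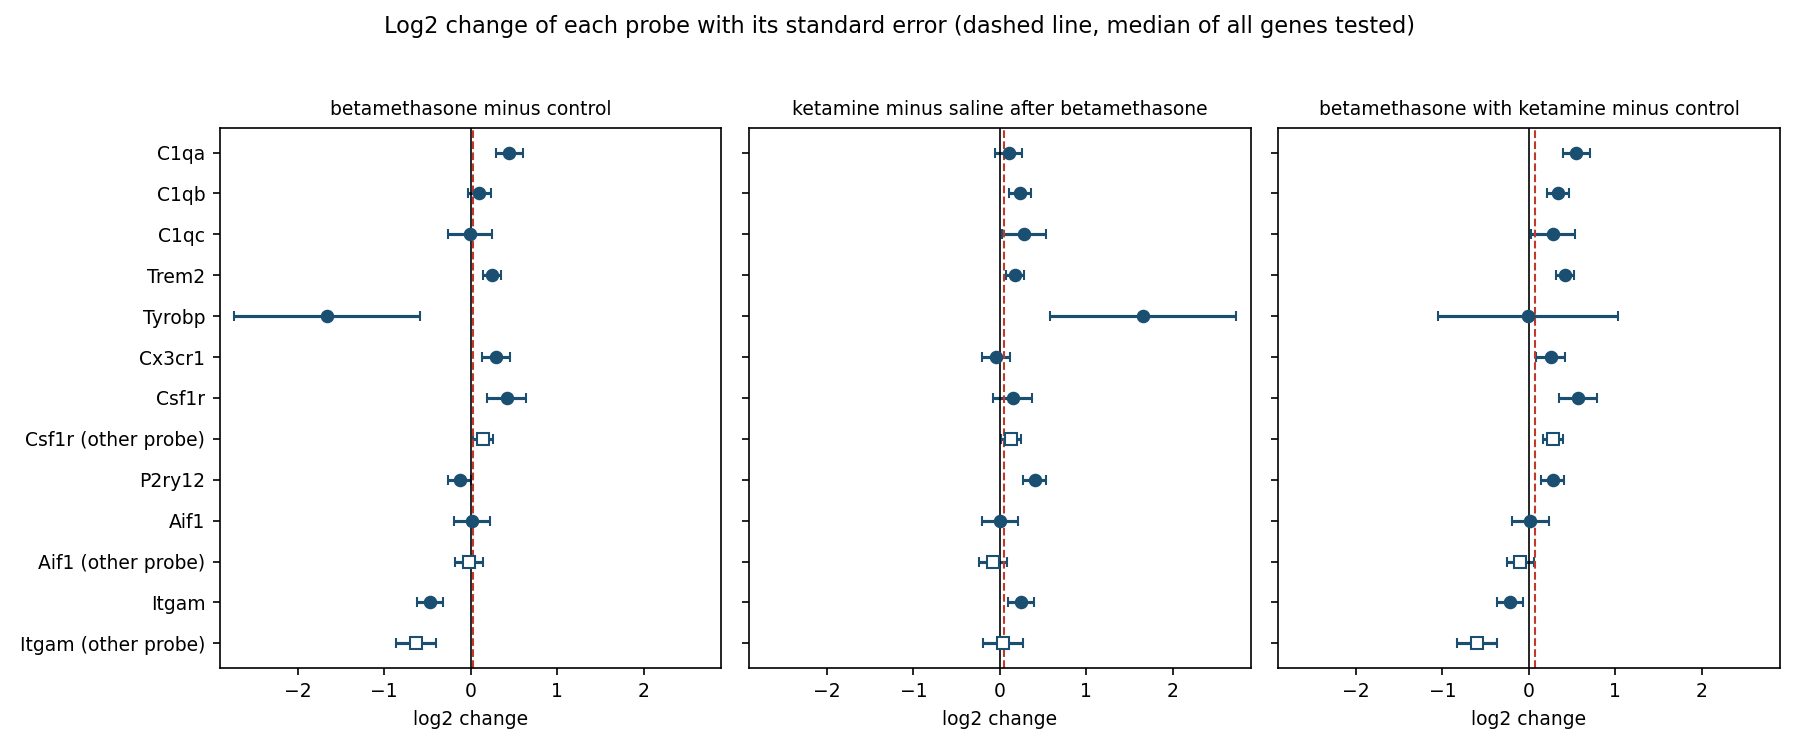
Log2 change (horizontal axis) of each probe of the 10 genes in the 3 comparisons, with its standard error; filled circles are the tested probes and open squares the other probes of Csf1r, Aif1 and Itgam. The dashed line is the median of all genes tested. C1qa, Trem2 and Csf1r lie right of 0 in both comparisons with control, both Itgam probes lie left of it, and Tyrobp has a standard error of over 1.

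The ketamine comparison asks what ketamine on postnatal day 14 did in animals with the same prenatal betamethasone. C1qa and Trem2 had been picked with the values of both exposed groups in view, so their ketamine differences are given without a p-value. In limma, none of the 10 genes passed, nor did any of the 18688 genes (0%), of which 604 had an unadjusted p under 0.05. The lowest adjusted p over all genes was 0.193. P2ry12 had the largest difference relative to its error, 0.40 (95% interval 0.11 to 0.69, 1.32-fold, limma adjusted p = 0.906), with all 4 ketamine samples above all 4 betamethasone samples. Such a lack of overlap in that direction was found in 2.75% of all genes, and in the other direction in 1.32%. With the arrays centred on their medians the P2ry12 difference was -0.04, and with the processed signals it was 0.14.

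For the other genes the intervals of the ketamine difference reached both sides of 0. The C1q genes differed by 0.10 (-0.25 to 0.45) for C1qa, 0.23 (-0.05 to 0.52) for C1qb and 0.28 (-0.28 to 0.84) for C1qc, with limma adjusted p = 0.906 for C1qb and for C1qc. Trem2 differed by 0.18 (-0.06 to 0.41), and by 0.33 without ketamine replicates 3 and 4. Under that setting, with 1 array left in the ketamine group, 2295 genes passed. Among them were Itgam (0.47, limma adjusted p = 0.0320) and Trem2, which had been picked with these values in view. Cx3cr1 differed by -0.04 (-0.40 to 0.31), Csf1r by 0.15 (-0.34 to 0.64), Aif1 by 0.00 (-0.46 to 0.46) and Itgam by 0.25 (-0.08 to 0.58), with limma adjusted p of 0.981, 0.931, 1.00 and 0.906. The other Itgam probe differed by 0.03 (-0.48 to 0.55). Tyrobp differed by 1.65 (-0.75 to 4.06, limma adjusted p = 0.906), and by -0.42 without the betamethasone array described above. Without the other betamethasone array, replicates 1 and 2, the Tyrobp difference of 4.39 passed (adjusted p = 0.00516), since it then rested on the 1 spot not well above background. The intervals do not show that the groups were alike.

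The median ketamine difference of the 10 genes was 0.20, and 9 of 10 were above 0, beside 0.05 and 62.9% over all genes. One of the 9 was Tyrobp, whose 1.65 rested on the failed betamethasone spot; with Tyrobp left out, 8 of 9 were above 0 and the median was 0.18. With array means as replicates, Tyrobp was at -0.42 and the median of the 10 was 0.16. This direction depended on the scaling between arrays. With the arrays centred on their medians, 2 of 10 (C1qc and Tyrobp) were above 0 and the median was -0.19, where the median of all genes was -0.10. With the processed signals 7 of 10 were above 0 (not C1qa, C1qb and Aif1), with a median of 0.14 where that of all genes was 0.07. C1qa, C1qb, Trem2 and Csf1r were above control, and Itgam below it, in both exposed groups under all 30 alternatives run. Many of these runs left the differences unchanged by design, such as those altering the block or dye term or leaving out samples of the group not compared. C1qa and Trem2 had also been picked as above control. Over the 30 runs the range for C1qa was 0.33 to 0.78 for betamethasone and 0.37 to 0.66 with ketamine, and for Trem2 0.17 to 0.52 and 0.24 to 0.57. In the processed signals the median of all genes itself lay 0.15 above 0 for betamethasone with ketamine.

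**Figure D3:**
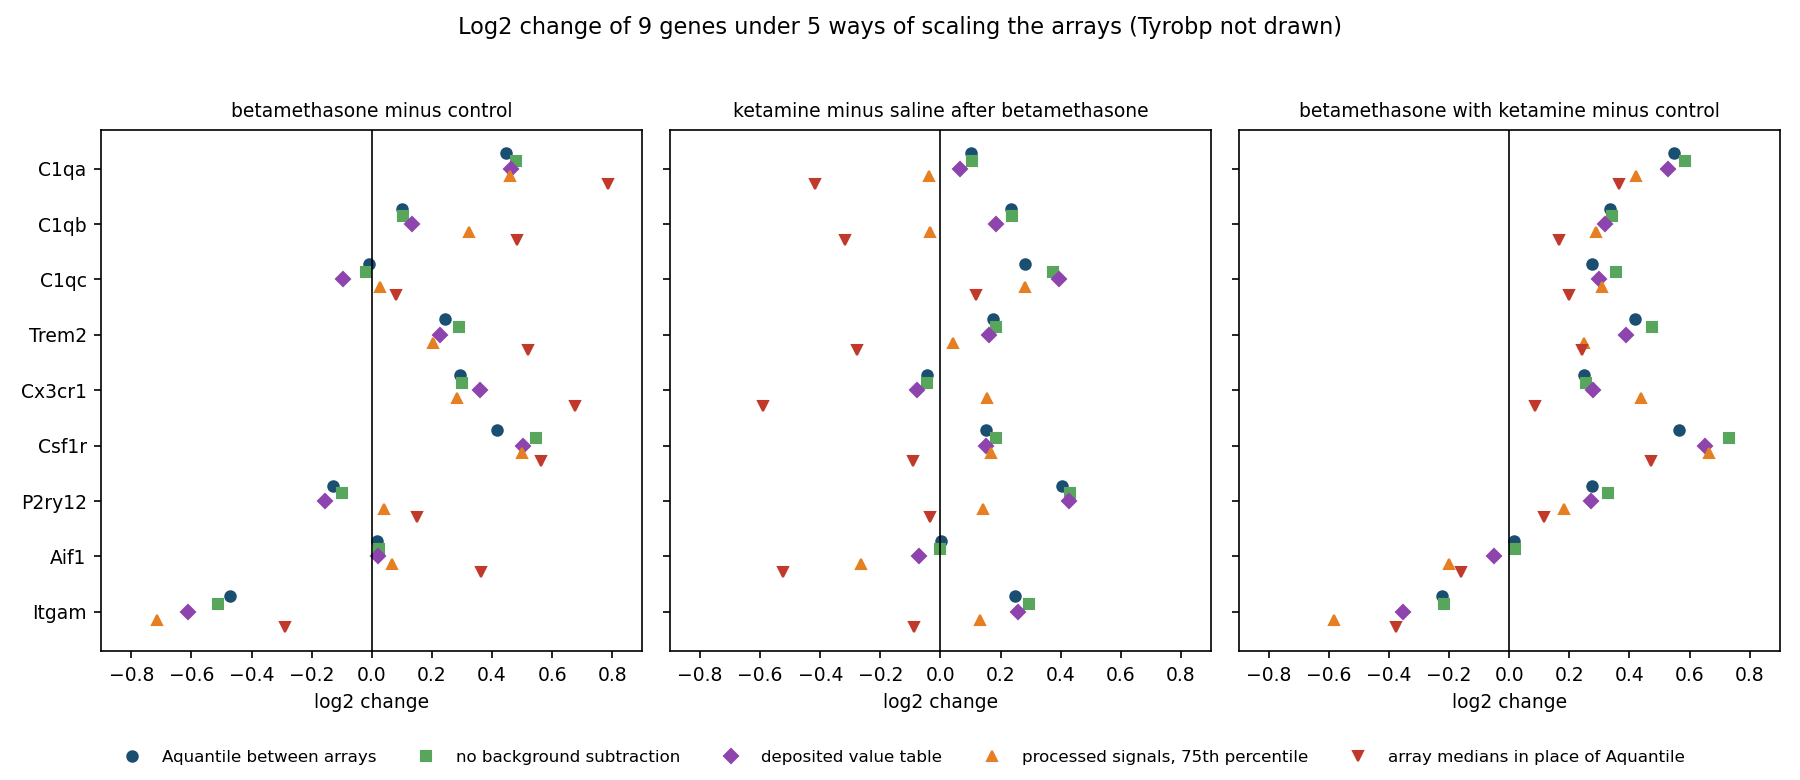
Log2 change (horizontal axis) of 9 genes in the 3 comparisons under 5 ways of scaling the arrays, 1 symbol each; Tyrobp is left out because of its failed spots. C1qa, C1qb, Trem2 and Csf1r stay right of 0 and Itgam left of it in both comparisons with control, while in the ketamine comparison the red triangles (array medians in place of Aquantile) lie left of 0 for each gene except C1qc.

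Other genes of microglia were set beside the 10. Of a list of 30 further microglial genes, 26 were tested, and 0 passed in any of the 3 comparisons. In the order betamethasone, ketamine after betamethasone, and both against control, 0.246%, 0% and 0.091% of all genes passed. In the same order 16, 15 and 19 of the 26 were above 0, with median differences of 0.09, 0.02 and 0.06. Of all genes, 56.0%, 62.9% and 63.8% were above 0, with medians of 0.03, 0.05 and 0.07. These shares also stand beside the lists below. Ctss, the lysosomal protease cathepsin S, was 0.32 higher for betamethasone and 0.46 higher for both (limma adjusted p = 0.462 and 0.290). Inpp5d, a phosphatase that dampens Trem2 signalling, was 0.47 higher for betamethasone (adjusted p = 0.402), and its other probe was 0.04 higher. Fcgr3a, an Fc receptor, was 0.36 higher with both exposures (adjusted p = 0.254). In the ketamine comparison Slco2b1, a transporter, differed by 0.65 and Laptm5, a lysosomal membrane protein, by -1.11 (adjusted p = 0.906 each). Without ketamine replicates 1 and 2, Laptm5 was at -0.11 and Slco2b1 at 0.47. The array of those replicates had 5.29% of its spots in areas that departed from the other arrays. With such areas masked, neither gene had enough values to be tested.

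Genes of activated microglia and of the signals to microglia gave the same count of 0 passing, where 0.246%, 0% and 0.091% of all genes passed. Of 16 tested activation genes, 13, 7 and 11 were above 0, with medians of 0.06, -0.03 and 0.09. Lgals3, which encodes galectin-3, was 0.62 and 0.53 higher than control (limma adjusted p = 0.140 and 0.221), and Lyz2, lysozyme, was 0.47 and 0.68 higher (0.487 and 0.303). In the ketamine comparison the growth factor Igf1 differed by -2.22, by -0.13 with the departing areas masked and by -0.13 on its other probe (adjusted p = 0.906), and the protease Ctsb by 0.23 (adjusted p = 0.906), which was -0.36 with the arrays centred on their medians. Of 15 tested ligands and receptors, 9, 8 and 9 were above 0, with medians of 0.08, 0.01 and 0.08. Tgfbr1, a receptor for TGF-beta, was -0.53 for betamethasone (3 control values, adjusted p = 0.197) and 0.44 for ketamine (adjusted p = 0.906). Csf2ra, a receptor chain for GM-CSF, was 0.42 higher with both exposures (adjusted p = 0.327). Sirpa, the receptor for the CD47 signal, was -0.36 and -0.25 from control (adjusted p = 0.234 and 0.339) and -0.06 and -0.62 on its other probe, and its sign turned in the processed signals (0.03 and 0.08). Cd200, a neuronal ligand that calms microglia, differed by 0.18 after ketamine (adjusted p = 0.906), by -0.08 on its other probe, and by -0.38 with the arrays centred on their medians.

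Downstream of C1q, 19 of 31 listed complement genes were tested and 0 passed in any comparison, where 0.246%, 0% and 0.091% of all genes passed. Of the 19, 10, 7 and 9 were above 0, with medians of 0.09, -0.05 and -0.01. C8g, a chain of a terminal component, was 0.44 higher than control for betamethasone and 0.37 higher with ketamine (limma adjusted p = 0.107 and 0.182). Cfi, the protease that cuts C3b, was 0.22 higher for betamethasone (adjusted p = 0.490), and -0.16 with the arrays centred on their medians. C2, which C1s cuts, was -0.34 for ketamine (adjusted p = 0.906), 0.10 on its other probe, and 0.05 without ketamine replicates 1 and 2. The C3a receptor C3ar1 and the CD11c gene Itgax did not pass the filter on dim probes.

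**Figure D4:**
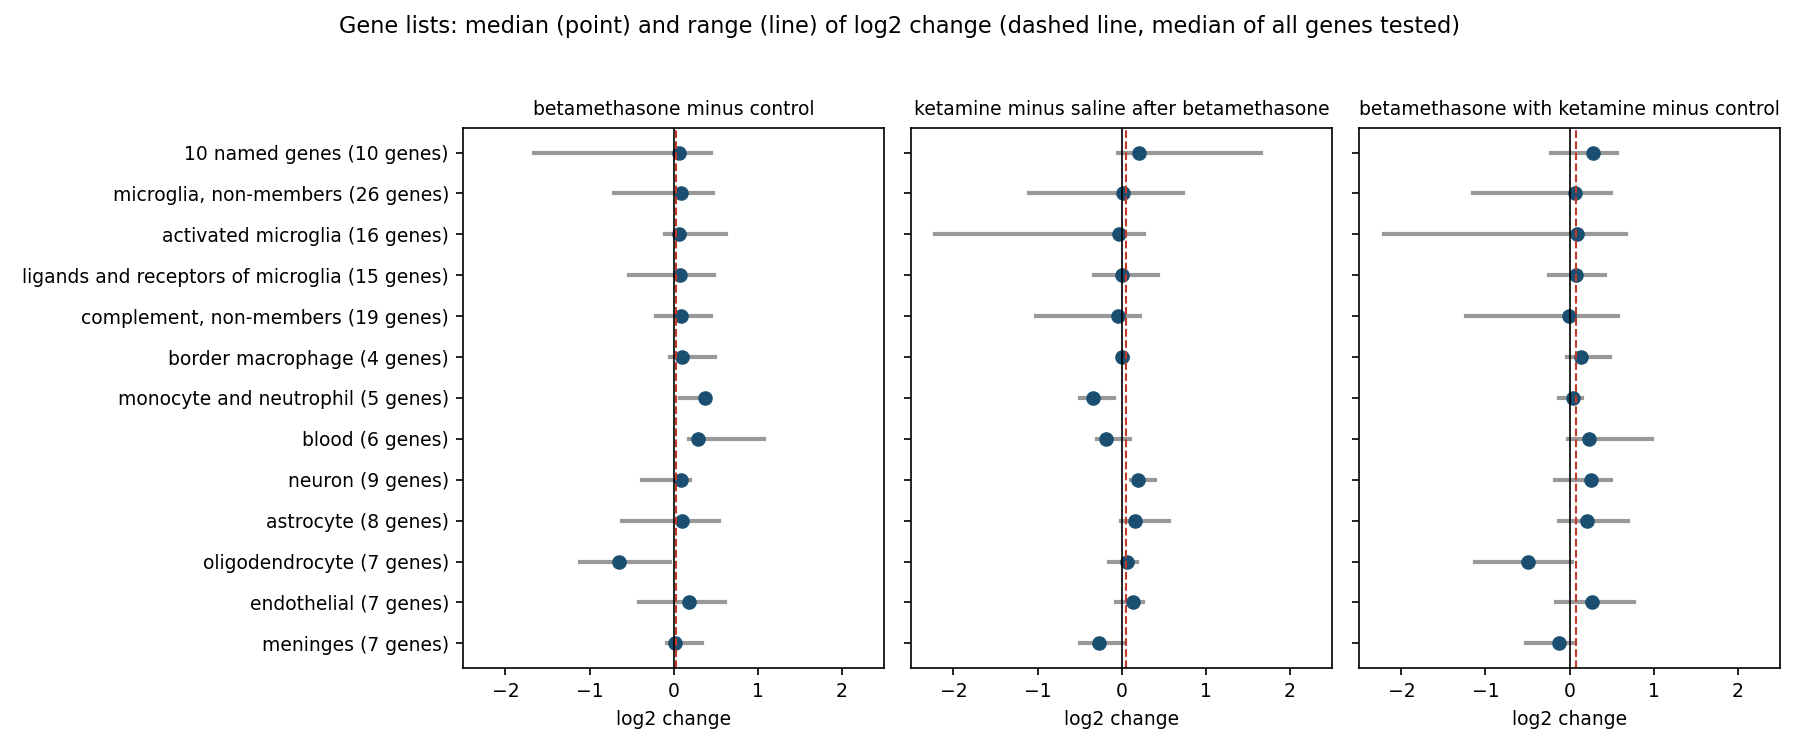
Median (point) and range (line) of the log2 change of the tested genes of each list in the 3 comparisons, with the median of all genes tested as a dashed line; "non-members" are genes of a list other than the 10. The oligodendrocyte list has the lowest median in both comparisons with control, and the microglial and complement lists lie near the dashed line.

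Markers of blood, border macrophages and other immune cells were described the same way, and 0 of their tested genes passed. The shares passing over all genes were 0.246%, 0% and 0.091%. Of 9 monocyte and neutrophil genes 5 were tested, and Ccr2, Mpo, Elane and Ngp did not pass the filter on dim probes. All 5 were above control after betamethasone (median 0.37), 0 of 5 were above 0 for ketamine (median -0.35), and 3 of 5 were above control with both (median 0.04). Their summed level (log2 of the summed intensities) ranged from 11.01 to 11.52 in control, 11.41 to 11.77 in the betamethasone group and 11.18 to 11.33 in the ketamine group. Of 9 border macrophage genes 4 were tested, with medians of 0.10, 0.01 and 0.14, and Mrc1, Ms4a7 and Siglec1 did not pass the filter. Their summed level ranged from 10.15 to 10.44, 10.13 to 11.09 and 10.25 to 10.95. All 6 blood genes were above control after betamethasone (median 0.28), and 4 of 6 with both (median 0.24), with summed levels of 17.39 to 18.99, 18.10 to 19.53 and 17.92 to 19.29. Of 7 T and B cell genes 1 passed the filter, with differences of 0.11, 0.06 and 0.17. The part of such cells in the differences of the 10 genes was not tested.

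Among the brain's own cells, neuron genes (9 of 10 tested) had medians of 0.08, 0.20 and 0.26, near those of the 10 genes, and astrocyte genes (8 of 8) had 0.10, 0.16 and 0.21. Endothelial genes (7 of 8) had 0.19, 0.13 and 0.27. The 7 tested oligodendrocyte genes had -0.65, 0.06 and -0.49, and the 7 genes of the meninges 0.02, -0.27 and -0.12. The neuron list's summed level overlapped between groups, at 17.38 to 17.50 in control, 17.22 to 17.53 in the betamethasone group and 17.48 to 17.62 in the ketamine group.

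Genes whose centred values lay nearest to the mean profile of C1qa, C1qb and C1qc over the 12 samples were Adprh, Neu4, Fam3a and Tp53bp2, at root mean square distances of 0.063 to 0.0725. The profile itself had a root mean square of 0.187, and 13447 genes were compared. The nearest to Trem2 were Snap47, Ntpcr, Tom1, Scand1 and Ppm1k, at 0.0546 to 0.063, beside a Trem2 root mean square of 0.204. None of these 9 genes was on the microglial or complement lists, and the samples share arrays, slides and scaling.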

How the data were processed

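RNA from 12 samples in 3 groups of 4 was measured on 6 arrays with 2 channels each. The channel signals and local backgrounds were deposited as intensity values in scanner units, from Feature Extraction 11.5.1.1 for the control arrays and 11.0.1.1 for the others, per the file headers; the submitters' processing notes name Agilent Feature Extraction 10.7.3.1. The processed signals, also intensity values, were background-subtracted and dye-normalized by the authors' scanner software, per the file headers. A deposited value table held a ratio of each spot's signal to the column median, and was used as an alternative; the control columns numbered 1 and 2 there equalled the scanner values of replicates 3 and 4, and vice versa, so replicate numbers are uncertain within the control group.

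From these, mean foreground was corrected with median local background by normexp (offset 50), scaled by loess within arrays and Aquantile between them, and put on a log2 scale, each channel as 1 sample. Outlier and control spots were left out. Probes were named through the reference tables (18355 by accession, 2758 by symbol, 429 by synonym); for 8825 the array's own name was used. A probe was tested if any group had 3 of its 4 samples well above background (21770 probes), and the probe with the highest mean stood for its gene. The comparisons used limma 3.58.1 (lmFit, eBayes; statmod 1.5.0, R 4.3.3), in 1 model of all 12 samples with a dye term and the array as a random block (correlation 0.563). P-values were 2-sided and adjusted over 18688 genes (Benjamini-Hochberg, threshold 0.05). The median standard error of a log2 difference was 0.146. The array holds 1 value per spot, so no depth of reads applies.

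The 10 genes and all lists were chosen with earlier results of these data known. All 10 were named, and from the microglial, activation, ligand and receptor, and complement lists the 2 tested genes with the smallest p in each comparison. The same rule also covered the lists of other cell types, for which counts and medians are given in place of names. The nearest profiles were the 5 named genes at the smallest root mean square distance. Some genes that these rules chose are not reported here. The alternatives were other background, scaling, probe, block and filter choices, and leaving out each sample or array. Replicate numbers gave no sign of pairing the samples across groups, but pairing was not excluded.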

Additional observations from a re-analysis of the deposited data

Results flagged for a closer look

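Aif1 in control replicate 2 was at 12.80 on the tested probe, far above the other control samples, which lay between 12.27 and 12.31. On the other Aif1 probe the same sample was also the highest of the control group, at 12.35 beside 12.10 to 12.28, but not set apart. Of 38 groups of 4 samples examined over the 13 probes, 1 was marked in this way, where chance marks about 1 in 20.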

How the results depend on the processing

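For betamethasone minus control, ketamine minus saline, and both exposures minus control, in this order, 46, 0 and 17 genes passed. Without background subtraction 22, 3 and 13 passed. With the processed signals 78, 3 and 108 passed (93 higher and 15 lower in the last), without the filter on dim probes 79, 1 and 37, and without the array block 982, 1 and 781. With array means as replicates 3, 0 and 2 passed, from the deposited values 18, 0 and 7 (5 higher and 13 lower in the first, 2 and 5 in the last), and with arrays centred on their medians 0, 0 and 0. With the replicate number as a block 28, 0 and 14 passed. The 12 correlations of same-numbered samples ran from -0.13 to 0.04, with 0 over 0.1, and gave no sign of pairing. Pairing was not excluded, because control replicate numbers are uncertain and the values were first centred by group and dye. Leaving out a sample or an array gave 3 to 493 genes for betamethasone, 0 to 2295 for ketamine and 3 to 3103 for both; the lowest came without betamethasone replicate 2 for the first and without the array of betamethasone replicates 3 and 4 for the last, and the highest without the array of ketamine replicates 1 and 2 (493) or 3 and 4 (2295 and 3103). The cause was not tested.

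The median difference of the 10 genes, 0.06, 0.20 and 0.27, became 0.42, -0.19 and 0.14 with arrays centred on their medians, and leaving out samples or arrays gave 0.031 to 0.21, 0.088 to 0.32 and 0.20 to 0.40. The lowest came without control replicates 1 and 2 (first and last) or ketamine replicates 1 and 2, and the highest without replicates 3 and 4 of the betamethasone, ketamine and control groups. With Tyrobp left out, chosen after seeing the data, the medians were 0.10, 0.18 and 0.27.

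Of the named genes, the ketamine difference turned sign with arrays centred on their medians for C1qa (-0.42), C1qb (-0.32), Trem2 (-0.28), Csf1r (-0.091), Aif1 (-0.52), P2ry12 (-0.036), Itgam (-0.089), Cd200 (-0.38) and Ctsb (-0.36), as did the betamethasone difference of Cfi (-0.16) and Sirpa (0.073). With the processed signals it turned for C1qa (-0.037), C1qb (-0.035), Cx3cr1 (0.15) and Aif1 (-0.27), as did both differences of Sirpa from control (0.035 and 0.079). Aif1 also turned without background subtraction (-0.0023), with the mean of its probes (-0.040) and in the deposited values (-0.071), and Tyrobp turned with array means (-0.42). Against control, arrays centred on their medians turned C1qc (0.082) and P2ry12 (0.15) for betamethasone and Aif1 (-0.16) for both exposures; the processed signals turned C1qc (0.027) and P2ry12 (0.041) for betamethasone and Aif1 (-0.20) and Tyrobp (0.29) for both exposures. Aif1 turned with the mean of its probes (-0.00040 and -0.040) and, for both exposures, in the deposited values (-0.049), and Tyrobp for betamethasone with array means (0.41). Leaving out samples or arrays turned Aif1 and Cx3cr1 in both comparisons with control, C1qc, P2ry12 and Tyrobp for betamethasone, and Tyrobp for both exposures. It moved the ketamine difference across 0 for Aif1 (-0.18 to 0.18), C1qa (-0.013 to 0.22), C1qc (-0.072 to 0.64), Cx3cr1 (-0.12 to 0.031), Tyrobp (-0.42 to 4.39) and C2 (-0.74 to 0.047). The arrays centred on their medians had an array correlation of 0.92 and passed no gene, and the cause of its turned signs was not tested.

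With 2 arrays per group, a log2 difference had a median 95% half-width of 0.322, more than most differences of the 10 genes.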

Other observations

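Both Itgam probes held the same 34 bases, but only 1 of them separated the ketamine group from control. On the probe that spanned 534 genomic bases, the ketamine group was at 8.45, 8.41, 8.41 and 8.26, all below control. On the other it was at 10.29, 10.28, 9.89 and 9.81, and overlapped control. The difference between the probes was not tested.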
